A study of Mus musculus with 2 samples.

Results

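MicroRNA genes named Gm followed by a number are hairpins that the mouse annotation lists under a placeholder symbol, without a miRNA name. They were taken as every GENCODE M21 gene of type miRNA whose name is Gm followed only by digits, which gave 1021 of the 2202 miRNA genes in the tables (46.4%). The choice used names alone and no measured value. The libraries came from total RNA of the left cerebral cortex of adult female 5xFAD/CAST mice aged 8 to 10 months, with RNA under 30 nt as the stated size range. 5xFAD is a transgenic line, with transgenes under a neuronal promoter, that develops amyloid plaques, and CAST is a wild-derived inbred strain. The 2 libraries, replicates 1 and 2, form 1 group, and no control genotype, second age or treatment was analysed here. Their labels share a donor entry but list separate biosamples, and do not say whether separate animals were used, so each p-value below concerns only these 2 libraries, whose difference may be technical.

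A miRNA gene is transcribed as a longer RNA that folds into a hairpin. Drosha and Dgcr8 cut the hairpin from its transcript, Dicer cuts off the loop, and an Argonaute protein keeps a strand of the remaining duplex, the mature miRNA, which pairs with messenger RNAs mainly through its seed, bases 2 to 8. Mirtrons are short introns that fold into a hairpin after splicing and bypass Drosha. A predicted hairpin in the annotation may lack any evidence of such cutting, and where it lies in an exon, a small nucleolar RNA, a tRNA or a repeat, short fragments of that other RNA would be counted for it as well. The tables give counts per hairpin and no read positions, so fragments of the surrounding RNA and cut miRNAs cannot be told apart in any value given here.

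Gm23450, which carried most of the counts, and Gm22650 are printed because RefSeq lists a mature miRNA for each and they had the most counts of such genes, and Gm24589 because its ends are those of an annotated intron. Hairpins are given from the GENCODE M21 transcripts (GRCm38/mm10) and mature miRNAs from RefSeq (GRCm38.p6), all 5′ to 3′. In the mature miRNAs the capitals mark the seed, in Gm23450 and Gm22650 the mature miRNA within the hairpin, and in Gm24589 the first and last 2 bases, which are those of a spliced intron.
mmu-miR-935: cCCAGUUAccgcuuccgcuaccgc
Gm23450 (chr7:3415066-3415156, plus strand): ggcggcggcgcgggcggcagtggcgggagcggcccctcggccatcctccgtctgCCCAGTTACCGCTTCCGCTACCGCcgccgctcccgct
mmu-miR-3552: aGGCUGCAggcccacuucccu
Gm22650 (chrX:146999405-146999509, plus strand): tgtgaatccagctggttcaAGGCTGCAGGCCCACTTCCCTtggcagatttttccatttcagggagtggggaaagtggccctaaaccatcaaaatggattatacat
Gm24589 (chr17:24594978-24595071, plus strand): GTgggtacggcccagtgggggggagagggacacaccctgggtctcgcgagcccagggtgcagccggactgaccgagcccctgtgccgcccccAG
The seed of miR-935 occurred in no other of the 1679 mature names of the RefSeq table, and the same held for the seed of miR-3552.

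Most of these genes had no counted reads. On the strand of the gene, 962 of 1021 (94.2%) had no count in either library, against 465 of the 1181 other miRNA genes (39.4%). A count of 0 allows a level of up to 0.710 CPM (counts scaled to a common gene-strand total) in replicate 1 and 0.581 CPM in replicate 2, taking 3 counts as the limit. These levels concern only reads that were counted on a gene. Reads mapping to several places were kept apart, so for hairpins with copies elsewhere a 0 does not bound the level of the RNA. The 59 genes with a count included 17 with a count of 1 in all, 21 with 2 to 9 and 21 with 10 or more, and 30 of the 59 had a count in both libraries. Only 5 reached 10 CPM in both libraries (0.490%), against 304 of the other miRNA genes (25.7%).

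The libraries held 4226300 and 5162369 gene-strand counts, and 3018 and 3267 of these fell on the Gm-number genes. That is 0.0714% in replicate 1 (95% Wilson interval 0.0689 to 0.0740) and 0.0633% in replicate 2 (0.0612 to 0.0655), so that 46.4% of the annotated miRNA genes took 0.0673% ± 0.00575 (SD, n = 2) of the counts. Reads mapping to several places, 40.4% and 39.4% of all reads, were in a row of their own. The intervals cover counting error only. Within the Gm-number genes the counts were concentrated: Gm23450 alone took 75.6% in replicate 1 and 74.7% in replicate 2, and the first 10 genes took 95.4% of both libraries together. As a check of the labelled tissue, the neuronal miRNAs Mir137 and Mir132 stood at 5889 CPM ± 169 and 30883 CPM ± 13710 (SD, n = 2), and the oligodendrocyte miRNA Mir338 at 2923 ± 979. The copies of Mir124a, also neuronal, had 0 to 19 counts per library. Among the other neuronal miRNA genes checked, Mir128-1, Mir128-2 and Mir138-1 had means of 6344, 1524 and 4532 CPM. Mir9-1, Mir9-2 and Mir9-3 were lower, at 23.9, 1.25 and 84.8 CPM. Mir124a and Mir9 each have several loci, and how reads were placed among copies is not given. Their low counts thus do not show that these miRNAs are scarce. Of the miRNAs of other organs that were checked, the muscle miRNAs Mir1a-1, Mir1a-2 and Mir133a-1 had 0 to 2 counts, the liver miRNA Mir122 stood at 67.5 CPM ± 26.9 and the endocrine miRNA Mir375 at 388 CPM ± 111.

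**Figure D1:**
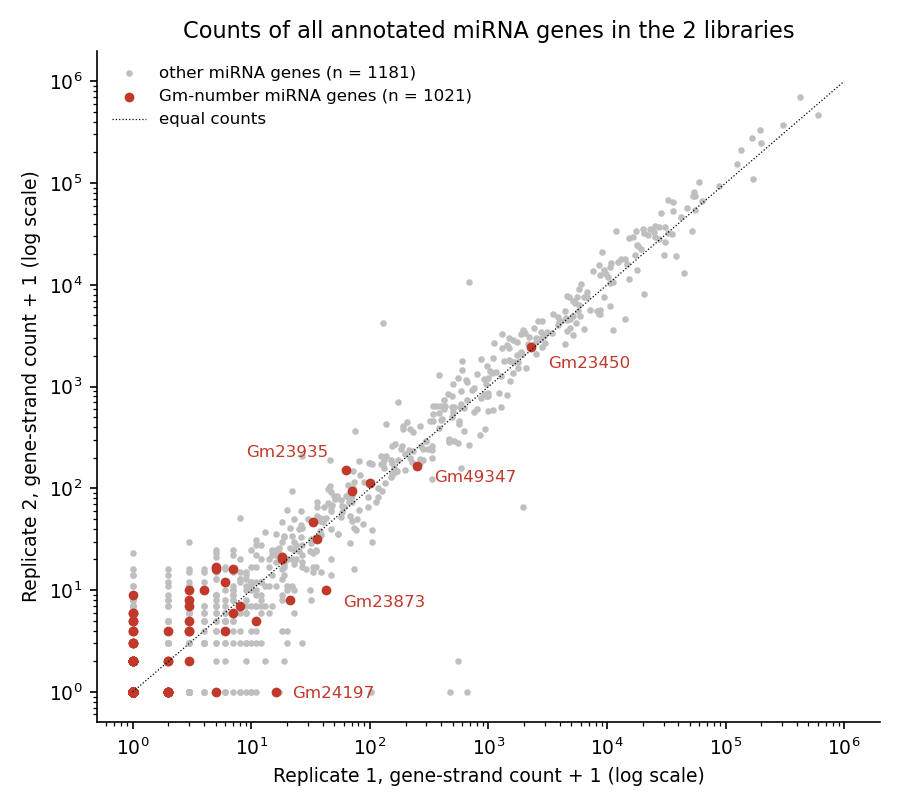
Gene-strand counts plus 1 of each annotated miRNA gene in replicate 1 (x axis) and replicate 2 (y axis), both on log scales; red points are the 1021 Gm-number genes, grey points the 1181 other miRNA genes and the dotted line marks equal counts. Gm23450 (2281 and 2441 counts) sits among the moderately expressed named genes, and the other red points lie at 250 counts or fewer in each library.

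Gm23450 (ENSMUSG00000094210.1) had 2281 and 2441 counts in replicates 1 and 2, equal to 540 and 473 CPM. It ranked 125 of the 2202 miRNA genes by mean level (506 CPM ± 47.3, SD, n = 2). All 91 bases of the hairpin lie in a coding exon of Cacng8, on the strand of that gene. Cacng8 encodes an auxiliary subunit of AMPA-type glutamate receptors that is abundant in forebrain neurons. RefSeq gives miR-935 at bases 55 to 78 of the hairpin printed above, and no count fell on the opposite strand in either library. The hairpin is 79.1% G and C, has a predicted minimum folding energy of -55.4 kcal/mol, and shares 6.76% of its 18-base windows with another annotated gene. Of the 24 Gm-number genes in a coding exon, the only other with a count was Gm47314 in Eif3j1, which encodes a subunit of translation initiation factor eIF3, with 2 and 6 counts.

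Gm22650 (ENSMUSG00000092879.1) had 35 and 31 counts (7.14 CPM ± 1.61, SD, n = 2). It lies in an intron of Htr2c, the serotonin 2C receptor gene, with miR-3552 at bases 20 to 40, and none of its windows occurred in another annotated gene. The second Gm-number gene in Htr2c, Gm24627, for which RefSeq gives miR-1911-5p and miR-1911-3p, had no count. The named miRNA genes of the same host ran from 0 and 10 counts for Mir1912 to 380 and 1312 for Mir1298, so Gm22650 was within the range of its neighbours.

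RefSeq lists mature miRNAs for 11 of the 1021 genes, and these 11 took 76.3% of the Gm-number counts, nearly all through Gm23450. Besides Gm23450 and Gm22650, Gm38670 (miR-9769, exon of Hspb6) had 2 and 3 counts. Gm38671 (miR-9768, Mcf2l) had 1 and 3, and Gm23363 (miR-3154, opposite Dnm1) had 1 and 0. The other 6 had no count on their own strand: Gm24195 (miR-1271) in an intron of Arl10, Gm24572 (miR-3618) in the 5′ UTR of Dgcr8, the gene of the Drosha partner, Gm27775 and Gm27740 (both miR-6967) in Kifc5b and Kifc1, Gm24627, and Gm25641 (miR-9b). For Gm27775 and Gm27740, all 18-base windows recur in another annotated gene.

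Gm24589 (ENSMUSG00000080342.1) had 99 and 113 counts (22.7 CPM ± 1.09, SD, n = 2), with 0 and 3 on the opposite strand. Its start and end equal those of an annotated intron of Pkd1, the polycystin-1 gene, which is the layout of a mirtron. Among the Gm-number genes only Gm27471 in Skiv2l-ps1 has such ends too, and it had no count. Of the other miRNA genes 20 have the ends of an annotated intron, and 14 of these had a count. None of the 18-base windows of Gm24589 occurred in another annotated gene. Its levels in the libraries were close, at 23.4 and 21.9 CPM.

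**Figure D2:**
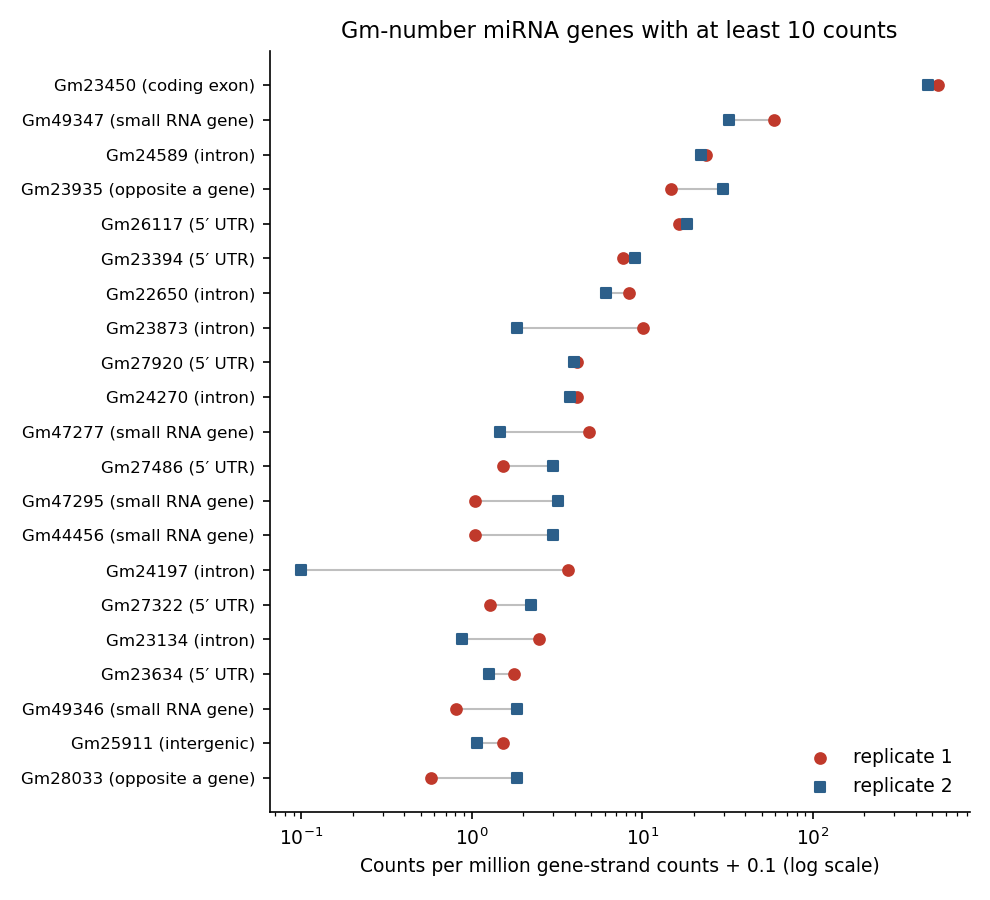
Level of each of the 21 Gm-number genes whose counts add up to 10 or more, in CPM plus 0.1 on a log scale; red circles are replicate 1, blue squares replicate 2, and the position class follows the name. Gm23450 has the highest level in both libraries, and Gm24197 has 3.55 CPM in replicate 1 and 0 in replicate 2.

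The 5′ UTR held the largest share of counted Gm-number genes of the 9 position classes: 12 of 22 (54.5%) had a count, with 144 and 210 counts in all. Named miRNA genes in 5′ UTRs were also often counted, 22 of 25. Gm26117 (ENSMUSG00000093340.1), in the 5′ UTR of the adhesion receptor gene Adgrb1, had 69 and 94 counts (17.3 CPM ± 1.33, SD, n = 2). Gm23394 in Ralgapa1, which encodes a subunit of a GTPase-activating protein for Ral, had 32 and 46. Gm27920 in the deubiquitinase gene Usp15 had 17 and 20. Gm27486 in Sbno1 had 6 and 15, Gm27322 in the ubiquitin ligase gene Smurf2 had 5 and 11, and Gm23634 in Stmn1, the gene of the microtubule regulator stathmin, had 7 and 6. The 12 counted genes had a median G and C content of 74.5% (quartiles 66.3 and 79.9) and a median folding energy of -0.51 kcal/mol per base, against -0.32 over all Gm-number genes. A high G and C content by itself gives low predicted folding energies. None of the 6 Gm-number genes in a 3′ UTR had a count.

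**Figure D3:**
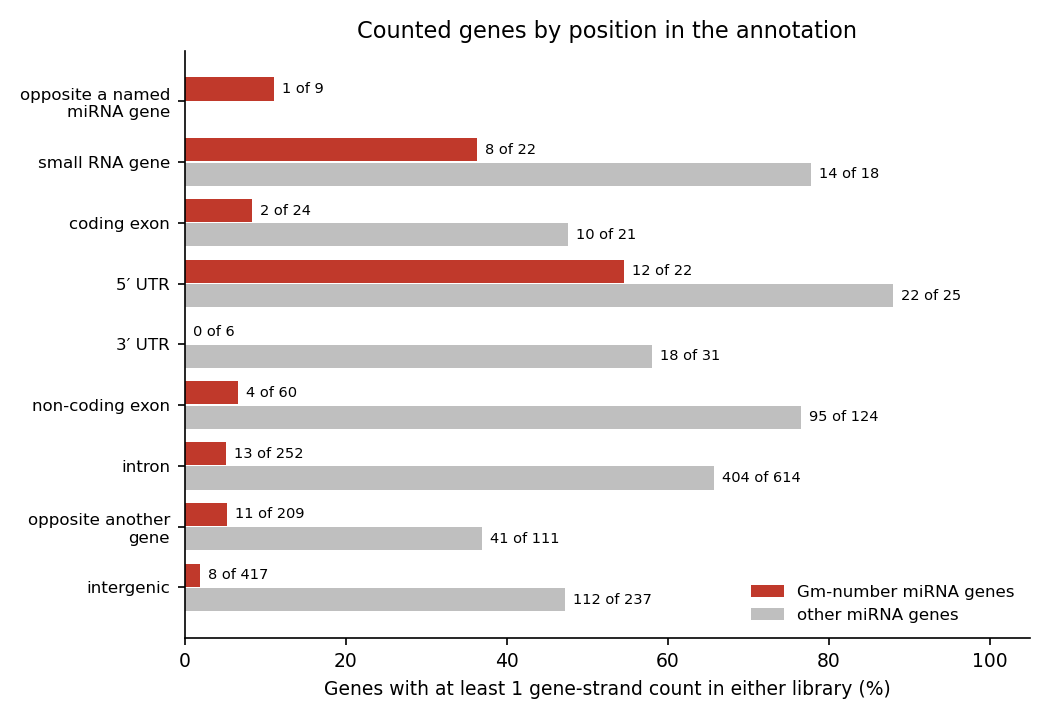
Percentage of genes with at least 1 gene-strand count in either library, by position in the annotation; red bars are Gm-number genes, grey bars other miRNA genes, and the labels give counted genes of all genes in the class. Gm-number genes range from 0 of 6 in 3′ UTRs and 8 of 417 between genes to 12 of 22 in 5′ UTRs.

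By position, 417 Gm-number genes lay between genes (40.8%), 252 in introns, 209 opposite another gene, 60 in non-coding exons, 24 in coding exons, 22 in 5′ UTRs, 22 in other small RNA genes, 9 opposite a named miRNA gene and 6 in 3′ UTRs. Between genes 8 of 417 (1.92%) had a count, against 112 of 237 other miRNA genes (47.3%). In introns, 13 of 252 had a count (5.16%), against 404 of 614 (65.8%). In each class that holds both kinds, a smaller share of Gm-number genes than of other miRNA genes was counted. Chromosome 2 held the most Gm-number genes, 114, of which 48 lie in Sfmbt2, an imprinted Polycomb gene whose intron carries a large miRNA cluster. These 48 had 6 and 3 counts in all, whereas 12 of the 71 named miRNA genes in Sfmbt2 had 3582 and 5545. Reads mapping to several places were in a row of their own, and their part in this difference was not tested.

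Gm-number genes inside other small RNAs numbered 22, of which 8 had a count. The 9 in small nucleolar RNA genes, whose products guide pseudouridylation or methylation of other RNAs, held 457 counts, the tRNA gene 19, the 8 in misc_RNA genes 22 and the 4 in rRNA genes 0. Gm49347 (ENSMUSG00000104863.1), within Snora74a, had 250 and 166 counts (45.7 CPM ± 19.1, SD, n = 2), second after Gm23450. Gm47277, within the small nucleolar RNA Gm24698 in Champ1, had 20 and 7, and Gm49346, within Snora81 in Eif4a2, had 3 and 9. Against these, Gm47284 in a small nucleolar RNA of Rpl27a had 1 and 1, and the other 5 of the class had none.

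Gm47295 overlaps Rn7s1, a gene of 7SL, the RNA of the signal recognition particle, and had 4 and 16 counts. Gm44456 overlaps a serine tRNA gene, n-TStga2, listed by RefSeq without strand in the table used, and had 4 and 15. The hairpin of Gm44456 is printed because it shows that a predicted miRNA can consist of a tRNA.
Gm44456 (chr13:21924928-21925016, minus strand): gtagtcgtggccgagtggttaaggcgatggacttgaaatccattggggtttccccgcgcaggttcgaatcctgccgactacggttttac
All windows of Gm47295 occur in another annotated gene, so its counts cannot be tied to this locus by sequence alone. For Gm44456 the share is 91.7%, and without read positions the part of the hairpin that was counted is not known.

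A family of 6 short hairpins held 266 counts, 4.23% of the Gm-number counts. Whether its sequence also occurs in RNA outside the annotated transcripts, such as ribosomal RNA, was not tested. Gm23935 (ENSMUSG00000076258.1; opposite Zc3h7a), Gm24270 (intron of Peak1) and Gm24245 (between genes on chromosome 4) are identical over 57 bases, Gm24187 differs from them at 1 base and Gm23388 at 4, and Gm25911 shares at least one 18-base window. In the sequences below, capitals mark the bases that differ from Gm23935.
Gm23935 (chr16:11144125-11144181, plus strand): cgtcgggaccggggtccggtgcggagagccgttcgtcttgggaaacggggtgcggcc
Gm24187 (chr13:9834469-9834525, minus strand): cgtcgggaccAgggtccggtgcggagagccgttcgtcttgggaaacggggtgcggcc
Gm23388 (chr8:85112012-85112068, minus strand): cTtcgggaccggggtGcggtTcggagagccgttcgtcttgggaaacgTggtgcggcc
Gm23935 had 62 and 152 counts, Gm24270 17 and 19, Gm24245 0 and 3, Gm25911 6 and 5, and Gm24187 and Gm23388 0 and 1 each. The identical copies thus differed widely in counts. How reads were placed among identical copies is not given in the sources used here. This was the only one of 47 groups of identical Gm-number genes with any count.

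Overlap with a named miRNA gene on the other strand was rare: 9 of 1021 Gm-number genes (0.881%) had it, and each covers the whole of its named partner. At these 9 loci, reads came almost wholly from the named strand. Replicate 1 had 194894 counts on the strand of the named gene and 0 on that of the Gm-number gene, which allows a share of up to 0.00154% for the latter. Replicate 2 had 230660 and 1, the latter at Gm24111, opposite Mirlet7f-1 (1413 counts). The largest pair was Gm25927 opposite Mirlet7e, a let-7 family member, with 0 against 124884 counts in replicate 1 and 0 against 154181 in replicate 2. Gm24083 opposite Mir191 had 0 against 42015 and 0 against 46302. Gm25301 opposite Mir378a had 0 against 17162 and 0 against 19681.

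**Figure D4:**
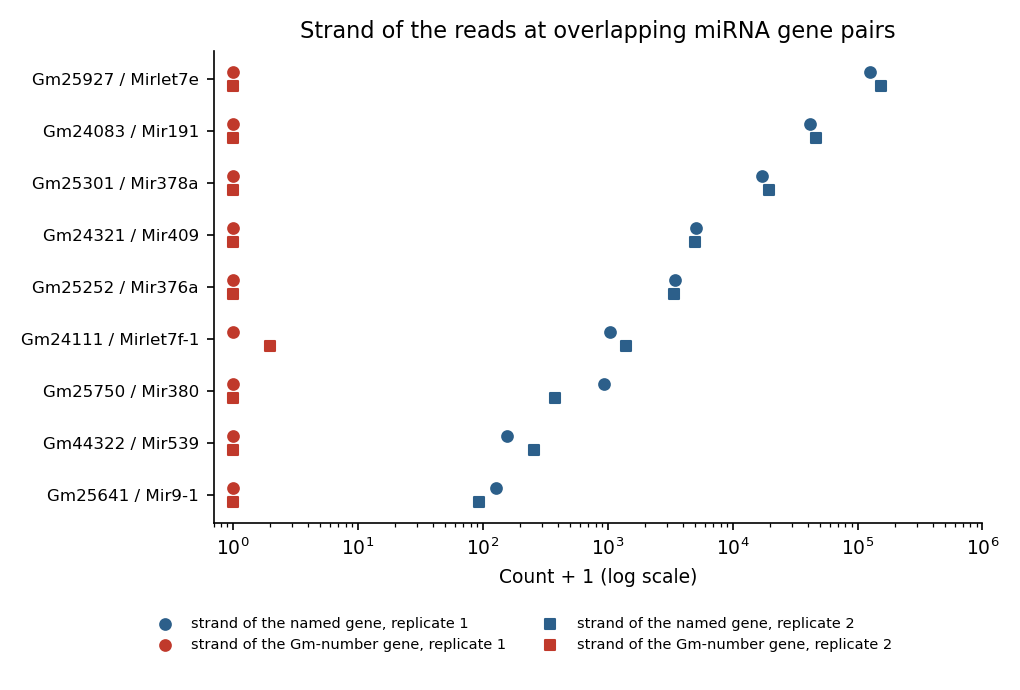
Counts plus 1 on a log scale at the 9 loci where a Gm-number gene overlaps a named miRNA gene of the other strand; blue is the strand of the named gene, red that of the Gm-number gene, circles replicate 1 and squares replicate 2. Red points lie at 0 counts except for 1 count at Gm24111 in replicate 2, and blue points run from 93 to 154181.

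Of the other 6 pairs, 4 lie in the imprinted Dlk1-Dio3 miRNA cluster on chromosome 12. Gm24321 opposite Mir409 had 5130 and 4972 counts on the named strand, Gm25252 opposite Mir376a 3453 and 3381, Gm25750 opposite Mir380 935 and 379, and Gm44322 opposite Mir539 154 and 258. All 4 had 0 on their own strand. At such low totals as those of Gm25641, opposite Mir9-1, with 126 and 93, a count of 0 allows a share of up to 2.38% and 3.23%. Mir9-1 shares 44.4% of its 18-base windows with another annotated gene, and how reads were placed among copies is not given. Because the pairs overlap, the unstranded column gives 0 for both genes of each pair, and their reads made up 68.4% and 63.4% of the ambiguous row of that column. The named partners took 4.61% and 4.47% of the gene-strand counts.

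The strand decides which miRNA a locus is credited with, as a stretch of each of the 2 largest pairs shows. The mature miRNA of the named gene is printed with its seed in capitals, and below it the bases of the Gm-number gene at the same place, read on its own strand, with the bases opposite the seed in capitals.
mmu-let-7e-5p: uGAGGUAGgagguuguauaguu
Gm25927 (chr17:17830366-17830387, minus strand): aactatacaacctcCTACCTCa
mmu-miR-191-5p: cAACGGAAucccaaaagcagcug
Gm24083 (chr9:108568325-108568347, minus strand): cagctgcttttgggaTTCCGTTg
At Gm25641 (chr3:88215589-88215696, minus strand) RefSeq lists mature miRNAs on both strands, miR-9-5p from Mir9-1 and miR-9b-5p from Gm25641, with seeds that differ.
mmu-miR-9-5p: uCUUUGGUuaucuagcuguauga
mmu-miR-9b-5p: uUCGGUUAucuagcuuuauga
In let-7e-5p the seed is that of 10 other mature names of the table, among them the let-7 miRNAs, miR-98-5p and miR-1961. The seeds of miR-9-5p and miR-9b-5p were each found in no other mature name.

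Away from these 9 loci, the Gm-number genes had 21 and 23 counts on the opposite strand against 3018 and 3266 on their own. That is 0.691% (95% Wilson interval 0.452 to 1.05) and 0.699% (0.466 to 1.05), against 0.00386% and 0.00371% for the 1126 other miRNA genes with no miRNA gene opposite. The former shares are taken over few own-strand counts, the latter over most of the gene-strand counts. Of the 15 Gm-number genes with opposite-strand counts away from the 9 loci, 11 had none on their own strand. The highest was Gm44330, opposite Adgrl1, the latrophilin-1 gene, with 6 and 8. Counted by genes over all loci, 24 of 1021 Gm-number genes (2.35%) had an opposite-strand count, against 74 of 1181 other miRNA genes (6.27%).

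Some of the Gm-number genes were identical copies of each other, nearly all of them without counts. The 1021 genes held 872 distinct sequences, and 196 of them had an identical copy, in 47 groups. The 3 largest groups had 27 copies of 121 bases (Gm22029 and others, on 12 chromosomes), 18 copies of 101 bases (Gm22414 and others) and 16 copies of 110 bases (Gm22065 and others), all with 0 counts. A group of 9 copies of 138 bases, Gm19658 and others, all on chromosome 13, lies opposite a series of genes, among them the histone H2A genes Hist1h2ab and Hist1h2ac, also with 0 counts.

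On their own strand, 227 Gm-number genes hold the exact mature sequence of a named miRNA gene elsewhere. The sequence of miR-680 was in 83 of them, on 20 chromosomes, that of miR-3471 in 50 and that of miR-3470b in 44, and none of these genes had a count. The named genes Mir680-1, Mir680-2, Mir680-3, Mir3471-1 and Mir3470b had none either. Of all 227, 2 had a count, 4 counts in total: Gm23193 with 0 and 3, and Gm26339 with 1 and 0. The tables hold reads mapping to several places in a row of their own, and how reads were placed among copies is not given, so these zeros do not show that the sequences are absent. The 3 mature sequences are given with the seed in capitals, as the shared part of the largest families.
mmu-miR-680: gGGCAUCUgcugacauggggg
mmu-miR-3471: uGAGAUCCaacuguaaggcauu
mmu-miR-3470b: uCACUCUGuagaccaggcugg

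Measured over annotated transcripts, a median of 76.4% (quartiles 32.0 and 100) of the 18-base windows of a Gm-number gene also occurred in a gene elsewhere, on either strand, against 1.85% (0 and 8.49) for the other miRNA genes. Counted Gm-number genes had a median of 20.5%, those without a count 79.5%. All windows were shared in 309 of the 962 without a count (32.1%) and in 4 of the 59 with one (6.78%). Those 4 were Gm23935, Gm24270, Gm24245 and Gm47295, described above. The share of genes counted fell from 11 of 60 (18.3%) with no shared window to 35 of 302, 9 of 346 and 4 of 313 (1.28%) with all windows shared. Among the other miRNA genes the corresponding values were 319 of 466 (68.5%), 379 of 592, 18 of 72 and 0 of 51. So at no shared window as well, fewer Gm-number genes than other miRNA genes were counted. The part of multi-mapping in these counts was not tested.

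**Figure D5:**
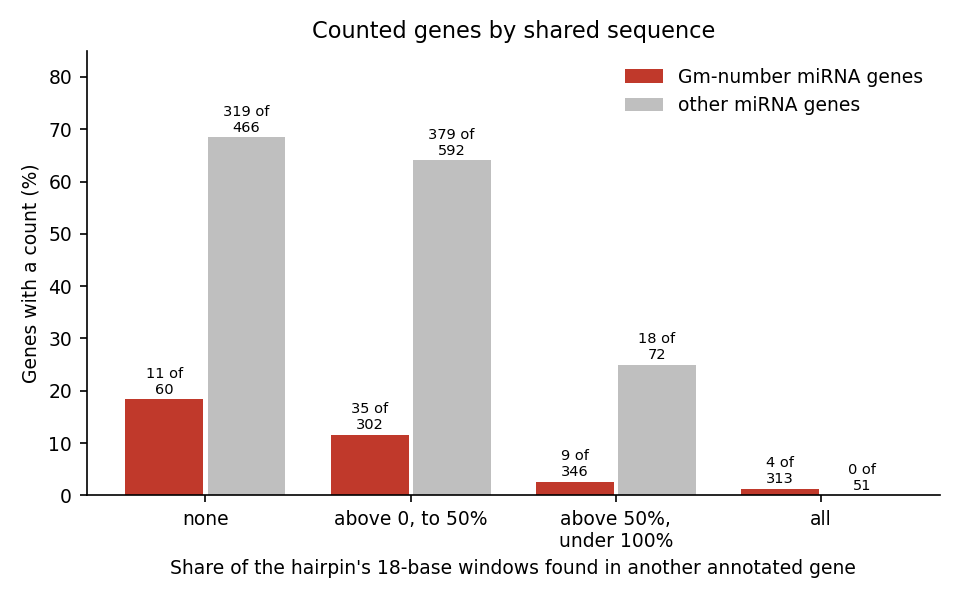
Percentage of genes with a gene-strand count in either library, by the share of the hairpin's 18-base windows that occur in another annotated gene; red bars are Gm-number genes and grey bars other miRNA genes, with counted genes of all genes above each bar. With no shared window, 11 of 60 Gm-number genes and 319 of 466 other miRNA genes had a count, and with all windows shared 4 of 313 and 0 of 51.

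The hairpins also differed in shape. Gm-number genes had a median length of 104 bases (quartiles 85 and 118) against 81 (68 and 96), a median folding energy of -0.32 kcal/mol per base against -0.41, and 61.7% against 69.2% of bases paired in the predicted structure. Median G and C content was near equal over all genes, at 50.5% and 50.9%. Within the Gm-number genes it was 60.4% for those with a count and 50.5% for those without. These are descriptions of annotated sequences, given without a test.

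Replicate 2 was set against replicate 1 with a two-sided exact binomial test on scaled library sizes, Benjamini-Hochberg adjusted over all miRNA genes whose counts add up to 10 or more. It compares these libraries and allows for counting error only. Of 546 genes tested, 57.3% were called at an adjusted p under 0.05. Of the 21 Gm-number genes tested, 7 were called (33.3%). Their median count sum was 27, against 288 for the other tested genes, and a smaller count gives the test less to detect. The median log2 ratio of the 21 was -0.09, and that of all tested genes -0.03. By direction, 26% of all tested genes were called with replicate 2 higher and 31.3% with replicate 1 higher, against 2 and 5 of the Gm-number genes.

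Higher in replicate 1 were Gm49347, Gm23873, Gm47277, Gm24197 and Gm23450. Gm49347, in the small nucleolar RNA Snora74a, was 1.83-fold higher in replicate 1 (exact binomial adjusted p = 3.49e-09), and Gm47277, also in a small nucleolar RNA, 3.32-fold (exact binomial adjusted p = 0.00656). Gm23873 (ENSMUSG00000093170.1), in an intron of A230057D06Rik on chromosome 7, had 42 and 9 counts and was 5.43-fold higher (exact binomial adjusted p = 1.78e-07). It shares 28.3% of its windows with other miRNA genes, 6 of them Mir344 genes; of these Mir344d-1 had 4 and 15 counts, Mir344c 3 and 5, and the other 4 none. Gm24197 was classed in an intron of the microtubule-associated kinase gene Mast1, with 17 of its 109 bases in a coding exon. It had 15 and 0 counts, so it was at least 6.07-fold higher in replicate 1, taking 3 counts in replicate 2 as the limit (exact binomial adjusted p = 1.77e-05). Gm23450 was 1.13-fold higher in replicate 1 (exact binomial adjusted p = 3.93e-05).

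Higher in replicate 2 were Gm23935, 2.01-fold (exact binomial adjusted p = 4.92e-06), and Gm47295 in 7SL RNA, 3.02-fold (exact binomial adjusted p = 0.0441). The calls of Gm23450 and Gm47295 were lost when a variation of 10% between libraries was allowed for, as a biological coefficient of variation of 0.1 in edgeR's exact test, with adjusted p = 0.575 and 0.131. Over all alternatives run, the adjusted p ran from 6.44e-07 to 0.575 for Gm23450 and from 0.0425 to 0.131 for Gm47295. The other 14 tested genes, among them Gm24589, Gm26117 and Gm22650, did not pass the test. They include Gm23134, in an intron of Blcap and opposite the imprinted gene Nnat, with 10 and 4 counts, and Gm28033, opposite Ppp1r18, with 2 and 9.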

How the data were processed

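The authors deposited raw read counts per miRNA gene for each library, not normalized, on GENCODE M21 genes and mm10, per the file headers (records beside the tables). For the aligner, the counter and trimming, nothing is given in the sources used here. Columns 2, 3 and 4 hold counts on either strand, the gene's strand (the main measure) and the opposite strand, as read from the column totals. The 4 rows that name no gene (67.4% and 67.6% of reads in replicates 1 and 2) were left out of every library size and test; the gene-strand totals set the depth.

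All 2202 gene IDs matched the annotation. CPM used gene-strand totals. The small RNA and exon classes needed at least 50% of the hairpin, and the other classes of overlap needed any overlap. Classes were taken in the order opposite a named miRNA gene, small RNA, exon, intron, opposite a gene, between genes. Folding used RNAfold 2.7.2. Library ratios used edgeR 4.0.16 TMM scaling with 0.5 counts added; DESeq2 1.42.0 gave alternative size factors. The test was checked on simulated data with counting error only, so the check does not cover further variation between libraries. Windows of 18 bases were searched in annotated transcripts, since no genome sequence was used here; this was chosen after seeing the data.

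Genes named are the 15 with the highest mean CPM, those opposite a named miRNA gene (9, where 10 were planned), those past the library test, the 3 largest groups of identical hairpins, and the most counted gene of each position class. Other genes named, with low counts, were chosen after their values were seen. The members and lists were chosen with earlier results of these data known.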

Additional observations from a re-analysis of the deposited data

Results flagged for a closer look

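The columns outside the main measurement held signal. On the strand opposite the Gm-number genes, 194915 counts were found in replicate 1 and 230683 in replicate 2, far above the 3 counts that a count of 0 allows, and they were almost all those of the 9 named partner genes. The unstranded column set aside 284860 and 363820 reads as ambiguous, the row into which these loci fall. Gm44330, which has no named miRNA gene opposite it and no count on its own strand, had 6 and 8 opposite-strand counts.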

How the results depend on the processing

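The 59 Gm-number genes with a count became 24 with the opposite-strand column, 30 when each library had to have a count and 37 with at least 3 counts in the sum; each library alone gave 40 to 49. The 5 genes at 10 CPM became 14 at 1 CPM, 1 at 100 CPM and 2 when CPM was taken over all reads of the table, and stayed 5 in each library alone. Their 0.0673% of the counts became 65.9% in the opposite-strand column, 0.0219% of all reads and, as added after seeing the data, 0.0167% without Gm23450; the libraries alone gave 0.0633% to 0.0714%. The share on the Gm-number strand at the 9 overlapping loci ran from 0 to 0.000434%. The library test called 7 of these genes, 3 with at least 100 counts, and 1 when limited, as added after seeing the data, to the 5 tested genes with no shared window; other settings gave 5 to 7. With no filter on low counts Gm26220 was called in place of Gm47295. Over all genes, 313 calls became 163 with edgeR at a coefficient of variation of 0.1. Under the other scalings and with 1 count added, each of the 63 ratios of the 21 tested genes kept its direction and its side of the threshold. The added count enters the ratio and not the test, so it could not change the side of the threshold. With 22-base windows, the median shared share was 64.0% for Gm-number genes and 0% for the other miRNA genes. The cause of these changes was not tested, beyond the fewer genes or samples that a setting leaves.

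No paired analysis was possible because the samples form 1 group. Counting windows over the whole genome was not run, and the 2-library test cannot leave out a library. Counts below 10 in the sum, 38 of the 59 counted genes, are too few to order.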
